A study of Homo sapiens with 8 samples.

Results

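ISG15 is a small ubiquitin-like protein that cells attach to other proteins, and the ISG15 conjugation system is the set of enzymes that puts it on and takes it off. The 6 genes described here are ISG15 itself, UBA7, UBE2L6, HERC5, HERC6 and USP18. They were chosen by name, and all 6 were among the 16525 genes of the expression table. The RNA came from EndoC-βH5, an established human pancreatic beta-cell line that was derived from fetal pancreas and later stripped of its immortalising transgenes. In 4 libraries the cells were left untreated (control), and in 4 they had been exposed for 48 h to IL-1β at 50 U/mL, IFNγ at 1000 U/mL and TNFα at 1000 U/mL together (cytokine). All 8 libraries stem from this single line, and the labels number them as replicates without saying what separates 1 replicate from the next, so p-values measure the spread between these samples only.

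Attachment of ISG15 follows the same relay as ubiquitin. UBA7 is the E1 enzyme that activates ISG15, UBE2L6 is the E2 enzyme that carries it, and HERC5 is the main human E3 ligase that transfers it to substrates, many of which are newly made proteins at the ribosome. HERC6 is a close relative of HERC5 that does most of this work in mice and little of it in human cells, and USP18 is the protease that removes ISG15 and separately holds back signalling at the type I interferon receptor. The genes are textbook interferon-stimulated genes, and interferon signatures including ISG15 are known from islets in type 1 diabetes. RNA levels were measured here, and neither free ISG15 protein nor its conjugates were.

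Interferon-stimulated genes are often read through an interferon-stimulated response element (ISRE), a short site bound by IRF proteins. To show what the start regions of these genes look like, the 250 bases before each start site in RefSeq's GRCh38.p14 promoters were searched on both strands for the ISRE core GAAANNGAAA, which 3.02% of 35116 promoters held (1061). Entries were found for ISG15, UBE2L6 (with 2 start sites), HERC5 and HERC6. UBA7 and USP18 were not matched. The following stretches of 100 bases cover positions 160 to 61 before the start, read on the strand of the gene, with every base of an ISRE-core match in capitals.
ISG15, GRCh38.p14 chr1:1013337-1013436, plus strand: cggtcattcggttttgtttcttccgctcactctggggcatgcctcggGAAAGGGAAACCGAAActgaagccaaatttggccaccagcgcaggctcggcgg
HERC5, GRCh38.p14 chr4:88456959-88457058, plus strand: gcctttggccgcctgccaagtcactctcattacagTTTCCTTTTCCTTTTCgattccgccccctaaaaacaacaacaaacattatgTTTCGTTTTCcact
HERC6, GRCh38.p14 chr4:88378692-88378791, plus strand: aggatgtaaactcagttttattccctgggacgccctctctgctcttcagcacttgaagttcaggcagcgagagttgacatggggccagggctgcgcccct
UBE2L6, GRCh38.p14 chr11:57567996-57568095, minus strand: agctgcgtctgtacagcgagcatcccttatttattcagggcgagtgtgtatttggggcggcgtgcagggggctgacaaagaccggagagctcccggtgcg

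The ISG15 stretch held 2 overlapping matches, GAAAGGGAAA and GAAACCGAAA, on the strand of the gene. HERC5 held 3 on the opposite strand, namely GAAAAGGAAA in 2 overlapping copies and GAAAACGAAA closer to the start. The neighbouring HERC6 and both UBE2L6 start sites held 0 in the whole 250 bases. A core of the IFNγ-activated site, TTCNNNGAA, was found in 6.57% of all promoters and in 0 of these windows. A match is a match of letters in this window, and factor binding was not measured.

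Exposure to the cytokines went with higher RNA of all 6 genes, and in each of the 6 every cytokine library lay above every control library. The sizes fell into 2 ranges. The modifier and the enzymes that activate and carry it rose 21.2-fold to 71.5-fold in mean level, whereas the protease and the HERC ligases rose 2.30-fold to 2.71-fold. In limma all 6 passed both thresholds of the study (log2 fold change beyond 0.5 in either direction, false discovery rate under 0.05) as higher, which 9.52% of all genes did (1574 of 16525), while 17.5% passed as lower. Groups without overlap, cytokine above control, were seen in 10.8% of all genes. After TMM scaling 2168 genes passed as higher and 1911 as lower, beside 1574 and 2896 on the deposited scale, and the 6 members were again all higher. A 2-sided exact permutation test of each of the 6 had p = 0.0286, the least that 4 against 4 libraries allow.

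Levels are in CPM, the reads on a gene scaled to the total reads of its library. Replicate numbers are absent from the column names, which instead begin alike in 4 pairs of 1 control and 1 cytokine library, called A, B, C and D here. Pairs A and B have the same name ending, as do C and D. Fold changes are on the log2(CPM + 0.1) scale. Over all genes the median log2 fold change was -0.17 on the deposited scale and -0.01 after TMM scaling. Values on the deposited scale thus sit slightly below TMM-scaled ones, and which scale is closer to the truth was not tested. The kit keeps strand, and whether the default strand setting of the counting fits it was not checked from reads. In bulk RNA, fewer cells of a type and less RNA per cell cannot be told apart.

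ISG15 (ENSG00000187608, chr1:1001138-1014540, plus strand, GENCODE 29 on GRCh38), the modifier, stood at 3.10, 3.79, 5.22 and 4.40 CPM in control libraries A to D. With cytokines it stood at 100.2, 87.5, 165 and 123 CPM. Library C was the highest in both conditions, and the lowest cytokine value was far above the highest control value. Mean levels went from 4.13 ± 0.8996 to 119 ± 34.1 CPM (SD, n = 4 each), 28.8-fold in means. On the log2 scale it rose by 4.80 (SE 0.21, adjusted p = 6.01e-08, limma), which ranked it 81st among the 1574 genes called higher. Behind these values were 145 to 262 reads per control library and 4097 to 8199 reads per cytokine library.

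UBA7 (ENSG00000182179, chr3:49805207-49813946, minus strand), the E1 enzyme of the pathway, had control values of 4.19, 5.44, 2.45 and 3.81 CPM. In the cytokine libraries the values were 100.3, 106, 56.9 and 74.9 CPM. Libraries C and D were the lowest of both conditions, the reverse of ISG15, and the conditions did not overlap. The mean rose from 3.97 ± 1.23 to 84.4 ± 22.7 CPM (SD, n = 4 each), 21.2-fold. The rise on the log2 scale was 4.39 (SE 0.26, adjusted p = 5.05e-07, limma).

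UBE2L6 (ENSG00000156587, chr11:57551656-57568284, minus strand), the E2 enzyme, showed the largest rise of the 6. Its control libraries held 6.37, 7.45, 5.32 and 4.54 CPM. Its cytokine libraries held 453, 450.2, 428 and 362 CPM, a narrow range for so large a change. The mean went from 5.92 ± 1.27 to 423 ± 42.5 CPM (SD, n = 4 each), 71.5-fold, or 6.15 on the log2 scale (SE 0.16, adjusted p = 1.07e-09, limma). The gene ranked 42nd among those called higher, and 232 to 352 reads per control library became 18004 to 21283.

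**Figure D1:**
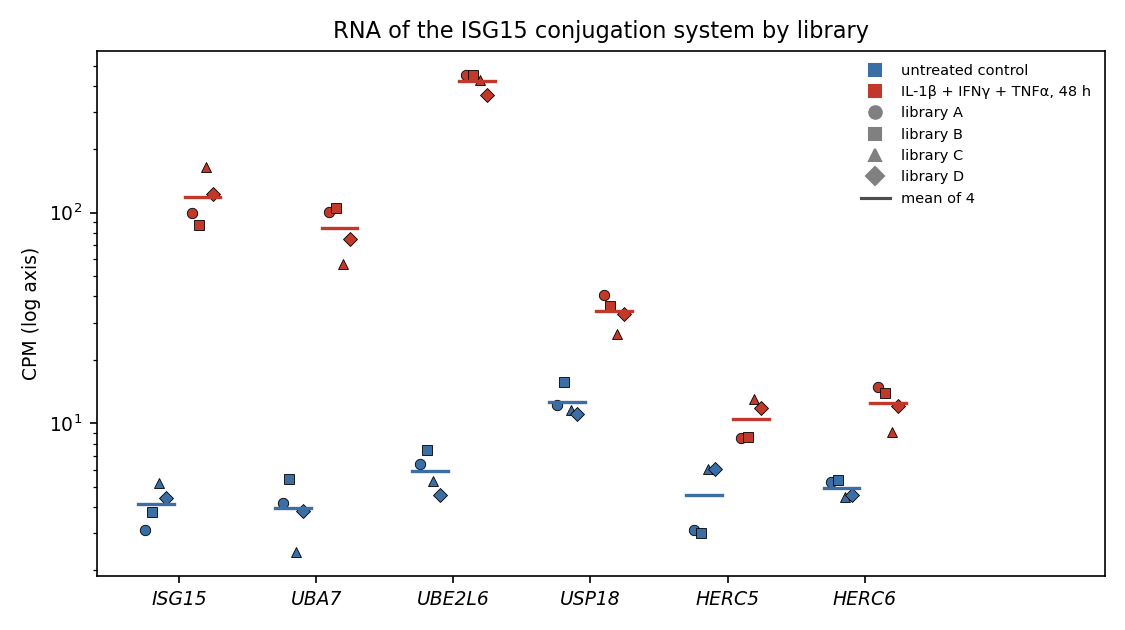
CPM of the 6 genes on a log axis in each of the 8 libraries (marker shapes, pairs A to D), with blue for untreated control, red for cytokine exposure and a line at the mean of 4. In all 6 genes the red points lie above the blue ones, with a gap of more than 10-fold for ISG15, UBA7 and UBE2L6 and a small one for USP18, HERC5 and HERC6.

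The ligases moved less. HERC5 (ENSG00000138646, chr4:88457117-88506163, plus strand) was at 3.10, 3.01, 6.03 and 6.08 CPM in controls. It was at 8.52, 8.59, 13.03 and 11.9 CPM with cytokines. Libraries C and D were above A and B in both conditions, and the lowest cytokine library was still above the highest control library. Means were 4.55 ± 1.73 and 10.5 ± 2.30 CPM (SD, n = 4 each), and the rise of 1.24 on the log2 scale (SE 0.27, adjusted p = 0.00602, limma) was the smallest of the 6 genes.

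HERC6 (ENSG00000138642, chr4:88378739-88443111, plus strand) ends 14005 bases before HERC5 begins and is transcribed in the same direction. Its control values were 5.26, 5.38, 4.44 and 4.54 CPM, close to one another. With cytokines it reached 14.9, 13.99, 9.10 and 12.1 CPM, with library C the lowest. The mean rose from 4.90 ± 0.483 to 12.5 ± 2.56 CPM (SD, n = 4 each), or by 1.31 on the log2 scale (SE 0.18, adjusted p = 0.000346, limma).

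USP18 (ENSG00000184979, chr22:18149899-18177397, plus strand), the ISG15 protease, started from 12.1, 15.7, 11.6 and 11.1 CPM in controls. The cytokine libraries held 40.9, 36.0, 26.7 and 33.1 CPM. The means were 12.6 ± 2.103 and 34.2 ± 5.94 CPM (SD, n = 4 each), 2.71-fold, or 1.43 on the log2 scale (SE 0.17, adjusted p = 0.000103, limma). It ranked 610th among the genes called higher, beside 666th for HERC6 and 713th for HERC5.

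USP18 has a near-identical copy. Of the 2030 distinct 100-base stretches in its annotated transcripts, 312 (15.4%) also occur in USP41, and in no other gene. USP41 was called lower, from 3.39 ± 0.667 to 1.25 ± 0.289 CPM (SD, n = 4 each; log2 fold change -1.38, SE 0.23, adjusted p = 0.00123, limma). Of the 1492 stretches of USP41, 24.2% occur in another gene, and USP18 accounts for 20.9%. Reads from the shared stretches could be split between the copies or lost in the counting. Both values are therefore uncertain, to an extent that was not measured. ISG15, UBE2L6, HERC5 and HERC6 shared 0 such stretches with another gene, and UBA7 shared 10, all with MIR5193, a microRNA gene.

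Taken by pair, each gene rose in 4 of 4. The log2 difference of UBE2L6 lay between 5.90 and 6.31, that of ISG15 between 4.49 and 4.97, and that of UBA7 between 4.25 and 4.55. USP18 spanned 1.19 to 1.74, HERC5 0.95 to 1.48 and HERC6 1.02 to 1.48. The ranges of the first 3 genes do not reach those of the others. Across 23 alternative scalings, tests, filters and left-out libraries every member kept its call, with HERC5 coming closest to losing it (adjusted p = 0.0203 in limma without cytokine library D).

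**Figure D2:**
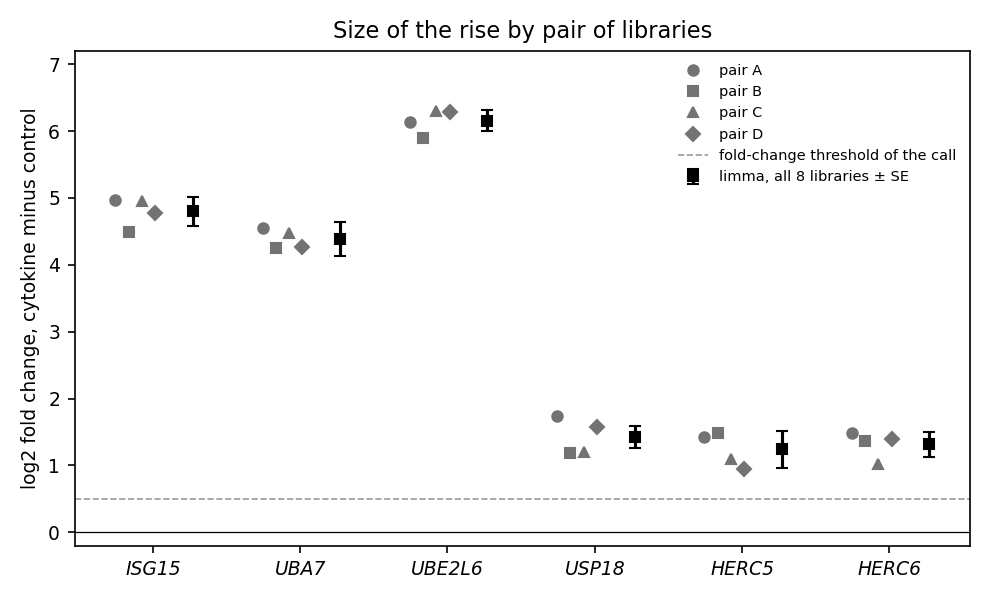
Log2 fold change, cytokine minus control, of the 6 genes in each pair of libraries A to D (grey markers) and in the limma fit over all 8 libraries (black square, bars ± SE), with the threshold of 0.5 dashed. UBE2L6 lies near 6.15, ISG15 and UBA7 between 4.25 and 4.97, and USP18, HERC5 and HERC6 between 0.95 and 1.74.

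Levels of different genes can be set side by side only per length, so length-scaled levels (TPM) were computed from reads and exon lengths. In control cells USP18 was the most abundant at 22.5 ± 2.32 TPM (SD, n = 4), followed by ISG15 at 17.1 ± 5.79, UBE2L6 at 10.1 ± 0.998, HERC5 at 3.81 ± 1.91, UBA7 at 3.27 ± 0.757 and HERC6 at 3.21 ± 0.158 TPM. Of the neighbours in this order, UBE2L6 and HERC5 did not overlap, and the other 4 neighbouring pairs did. The untreated libraries held more RNA of the protease than of any enzyme of the conjugation relay.

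With cytokines the order by TPM changed. UBE2L6 led at 794 ± 51.1 TPM (SD, n = 4), above ISG15 at 535 ± 201 TPM in 4 of 4 libraries although the ranges overlapped. UBA7 at 75.5 ± 13.7 and USP18 at 65.9 ± 7.81 TPM came next and overlapped each other. HERC5 at 9.31 ± 3.02 and HERC6 at 8.84 ± 1.25 TPM were last, below every USP18 value. The 6 genes together went from 60.0 ± 8.47 to 1488 ± 230.0 TPM.

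**Figure D3:**
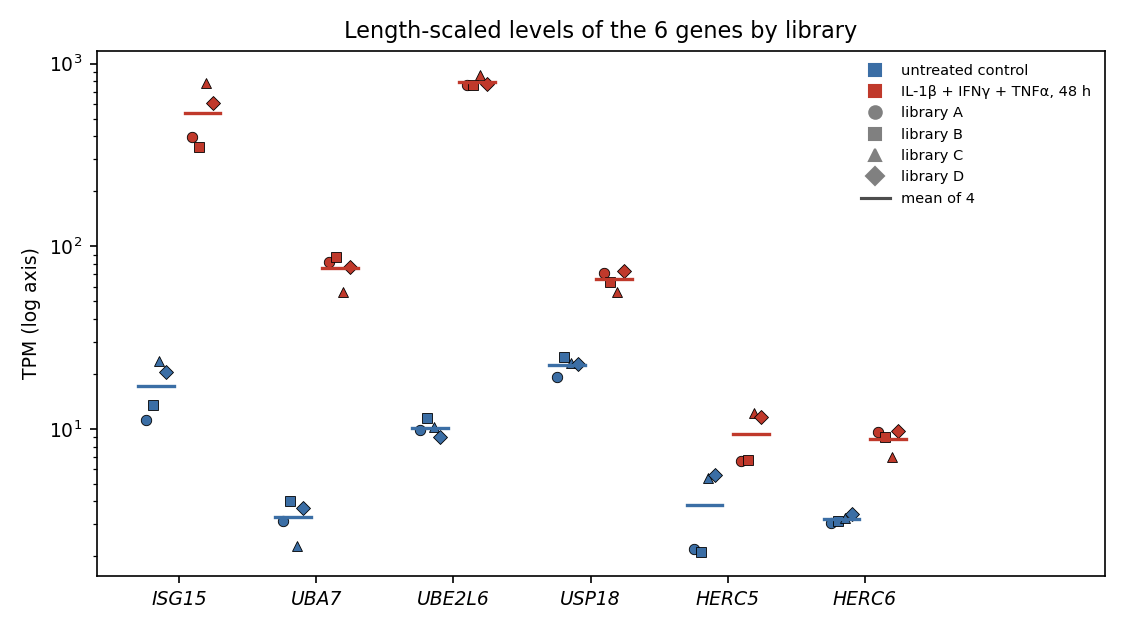
TPM of the 6 genes on a log axis by library, with colours, marker shapes and mean lines as in the plot of CPM. Control values of USP18 and ISG15 are the highest, while among cytokine libraries UBE2L6 and ISG15 lie far above UBA7 and USP18, and HERC5 and HERC6 remain near 10 TPM.

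The makeup of the system's RNA shifted accordingly. USP18 made up 37.7% ± 3.80 of the summed TPM in control libraries and 4.53% ± 0.971 in cytokine libraries (SD, n = 4 each). UBE2L6 went from 17.1% ± 3.07 to 53.9% ± 5.59 and ISG15 from 28.02% ± 6.03 to 35.0% ± 7.91, the latter with overlapping ranges. HERC5 was 6.16% ± 2.47 of the sum in controls and 0.615% ± 0.121 with cytokines, and HERC6 5.42% ± 0.638 and 0.611% ± 0.150. UBA7 stayed within overlapping ranges at 5.57% ± 1.54 and 5.26% ± 1.61.

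As a ratio within each library, UBE2L6 to USP18 in TPM was 0.508, 0.460, 0.445 and 0.397 in controls A to D. It was 10.7, 12.1, 15.6 and 10.6 with cytokines, with no overlap. UBA7 to USP18 went from 0.146 ± 0.0313 to 1.15 ± 0.164 (SD, n = 4 each), and UBE2L6 to UBA7 from 3.23 ± 0.884 to 10.9 ± 3.13. Each of these, and ISG15 to USP18, which went from 0.761 ± 0.235 to 8.37 ± 4.00, gave p = 0.0286 (2-sided exact permutation test), the smallest possible and the value of the same single arrangement. The ratios share USP18 or UBA7 and are not independent of the fold changes above.

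The ligases differed between the pairs of libraries. HERC5 to HERC6 in TPM was 0.716, 0.680, 1.65 and 1.63 in controls A to D and 0.696, 0.746, 1.74 and 1.20 with cytokines. HERC5 was thus below HERC6 in A and B and above it in C and D, in either condition. The ratio had means of 1.17 ± 0.544 and 1.09 ± 0.486 (SD, n = 4 each), and the difference between conditions was far smaller than that spread (p = 0.971, 2-sided exact permutation test). The test did not use the pairs, and that spread includes the gap of C and D from A and B.

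**Figure D4:**
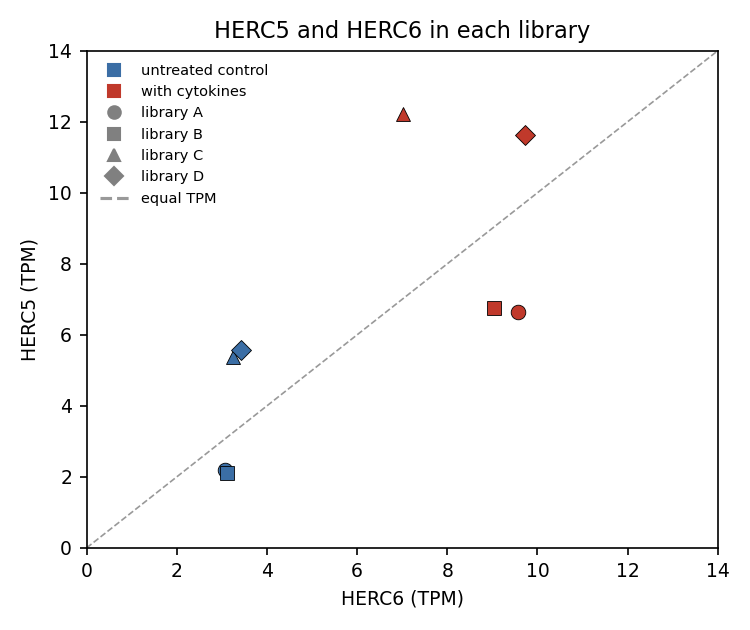
HERC5 against HERC6 in TPM in each of the 8 libraries (blue control, red cytokine, marker shapes for pairs A to D), with a dashed line at equal TPM. The 4 libraries of pairs C and D lie above the line and the 4 of pairs A and B below it.

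Tested directly in limma, untreated HERC5 was higher in C and D than in A and B by 0.97 on the log2 scale (SE 0.18, adjusted p = 0.00580), a call that 14.1% of all genes received as higher and 4.28% as lower. No other member was called in this comparison. UBE2L6 was at -0.48 (adjusted p = 0.0311), UBA7 at -0.63 (adjusted p = 0.0599) and ISG15 at 0.47 (adjusted p = 0.0768). With cytokines the HERC5 difference was 0.53 (SE 0.18, adjusted p = 0.0759), and no member was called, beside 5.55% of all genes as higher and 3.49% as lower. What the shared name endings stand for is not given in the sources used here.

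The size of the cytokine effect was compared between the same pairs of libraries. ISG15 changed by 4.73 in A and B and 4.87 in C and D on the log2 scale, UBA7 by 4.40 and 4.37, and UBE2L6 by 6.01 and 6.30. USP18 changed by 1.47 and 1.38, HERC6 by 1.42 and 1.20, and HERC5 by 1.46 and 1.02. The interaction was called for none of the 6 in limma (adjusted p = 0.999 for each, unadjusted p from 0.113 to 0.925), and for 0.0303% of all genes. The estimate for HERC5 was -0.43 with an SE of 0.25, so a difference of that size could not be told from the spread.

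The other proteins of the pathway were looked at by list. For comparison with each list, 9.52% of all genes were called higher and 17.5% lower, with a median log2 fold change of -0.17. Of 8 further ligases and proteases that act on ISG15, 1 was called higher, 1 lower and 6 neither, with a median log2 fold change of -0.03. The one that rose was TRIM25, a ubiquitin ligase that also attaches ISG15, from 34.2 ± 2.05 to 91.8 ± 4.72 CPM (SD, n = 4 each; log2 fold change 1.42, SE 0.10, adjusted p = 2.87e-06, limma). USP13, a deubiquitinase that also reacts with ISG15, fell from 13.2 ± 1.81 to 7.09 ± 1.93 CPM (log2 fold change -0.92, SE 0.21, adjusted p = 0.00747), a call that was lost relative to GAPDH (adjusted p = 0.0893). ARIH1, USP2, USP5, USP14, USP16 and USP21 lay between -0.37 and 0.25.

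Of 4 listed proteins that bind ISG15 or its conjugates, 3 were called higher. RNF213, a giant ligase that binds ISG15-modified proteins, rose from 79.6 ± 13.3 to 567 ± 103 CPM (SD, n = 4 each; log2 fold change 2.82, SE 0.17, adjusted p = 6.02e-07, limma). The autophagy receptor SQSTM1 and its partner BAG3 rose by 1.40 and 0.86 on the log2 scale, while HDAC6 was at 0.01.

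USP18 acts on the type I interferon receptor by binding its IFNAR2 chain together with STAT2. IFNAR2 rose from 6.11 ± 0.891 to 11.7 ± 0.926 CPM (SD, n = 4 each; log2 fold change 0.93, SE 0.15, adjusted p = 0.00101, limma), and STAT2 rose by 2.05 on the log2 scale. IFNAR1 and JAK1 were at -0.06 and 0.08, and TYK2 was at -0.43, which is short of the fold threshold. SKP2, the ubiquitin ligase subunit known to degrade USP18, fell from 36.8 ± 5.99 to 19.7 ± 2.63 CPM (log2 fold change -0.90, SE 0.15, adjusted p = 0.00129). In this list of 6 the median was 0.01.

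All 7 transcription factors of the interferon response that were listed were called higher, with a median log2 fold change of 2.05. IRF1, the factor induced directly by IFNγ, led with 6.03, and IRF9 rose by 4.03. STAT2, IRF7, IRF2 and IRF3 rose by 2.05, 1.52, 1.26 and 0.67.

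The families to which the enzymes belong were listed as well. Of 9 other E1-type enzymes, 1 was called higher and 0 lower, with a median of -0.11. UBA6 rose from 23.2, 24.2, 29.7 and 38.0 CPM in controls to 67.4, 71.7, 58.6 and 96.4 CPM with cytokines (log2 fold change 1.35, SE 0.19, adjusted p = 0.000405, limma). UBA1, the main E1 of ubiquitin, was at 444 ± 91.3 and 374 ± 70.4 CPM (SD, n = 4 each; adjusted p = 0.351).

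Of 35 other E2 enzymes, 1 was called higher and 2 lower, with a median of -0.09. The riser was UBE2Z, at 79.6, 82.3, 84.3 and 72.6 CPM in controls and at 146, 154, 158 and 157 CPM with cytokines (log2 fold change 0.95, SE 0.10, adjusted p = 5.90e-05, limma). UBA6 and UBE2Z are known as the E1 and E2 of FAT10, another ubiquitin-like modifier induced by IFNγ and TNFα, whose own gene UBD was not analysed here. Of the 35, 3 were called higher with TMM scaling and 5 in edgeR with the pairs as a replicate block, UBE2Z among them in both. The E2 enzymes of cell division UBE2C and UBE2T fell by 1.33 and 0.97 on the log2 scale. UBE2L3, the closest relative of UBE2L6, was at 102 ± 12.7 and 113 ± 9.11 CPM (SD, n = 4 each), a log2 difference of 0.16 (SE 0.12, adjusted p = 0.368).

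Of 3 other HERC ligases, the giant HERC1 rose by 0.68 (SE 0.13, adjusted p = 0.00270, limma) and HERC4 by 0.73 (SE 0.21, adjusted p = 0.0208), and HERC2 was at -0.24. The call of HERC4 was lost without control library A, without control library B and without cytokine library D (adjusted p = 0.0520, 0.0613 and 0.0604). None of 18 genes for ubiquitin and the other ubiquitin-like modifiers was called by limma on the deposited scale, and their log2 differences lay between -0.42 and 0.59. This depended on the setting, since 2 of the 18 were called higher with TMM scaling, 2 in limma and 6 in edgeR with a replicate block for the pairs, and 5 in DESeq2. UBB, which encodes polyubiquitin, was at 0.42 (adjusted p = 0.168, limma).

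**Figure D5:**
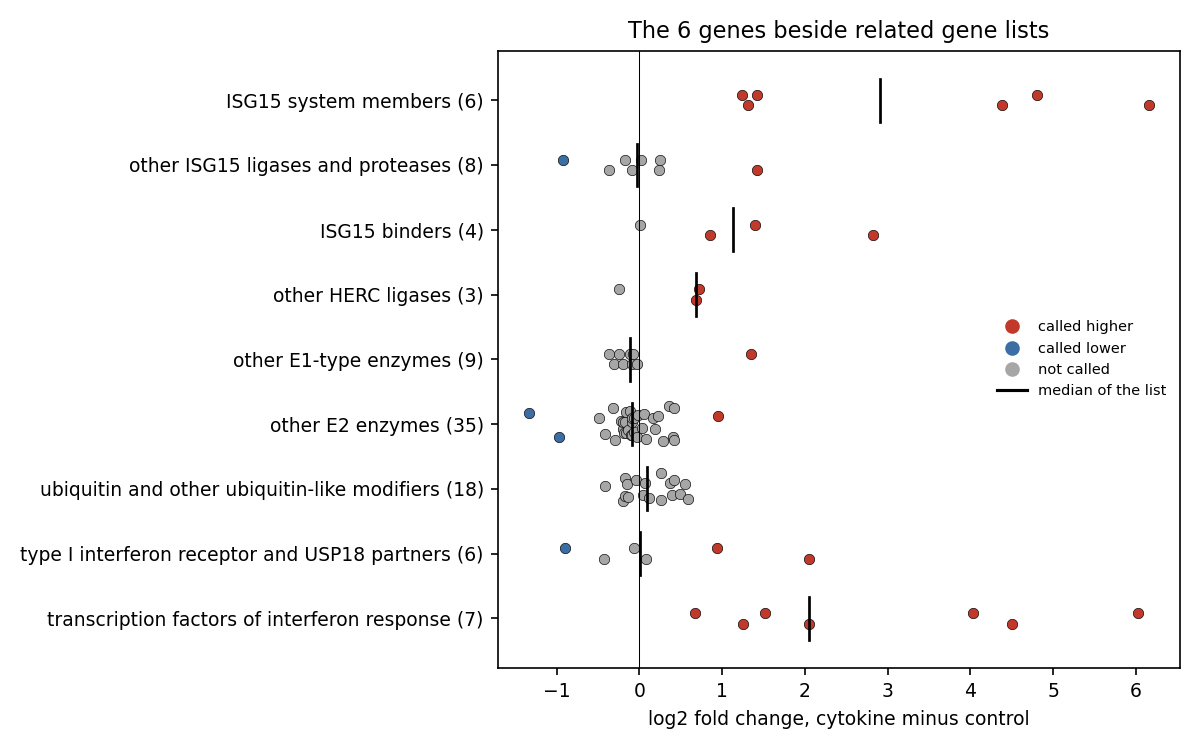
Log2 fold change, cytokine minus control, of each gene in the 6-gene system and in 8 related lists (number of genes in brackets), red where called higher, blue where called lower and grey where not called, with a black line at the median of each list. The ISG15 system and the interferon transcription factors lie wholly to the right of 0, while the other E1, E2 and modifier genes centre near 0.

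Of 23 proteins described as ISG15 substrates, 8 were called higher and 0 lower, and the median log2 fold change was 0.08. Among the risers were IFIT3 at 8.63, IFIT1 at 4.60, MX1 at 4.35, IFIH1 at 3.17, DDX58 (which encodes RIG-I) at 1.71, EIF2AK2 at 0.99 and IRF3 at 0.67. All 8 are themselves sensors, effectors or regulators of the interferon response. The values of DDX58 overlapped between conditions, and its call was lost within libraries C and D (adjusted p = 0.145). The other 15, among them PCNA and BECN1, were not called, although PCNA at -0.73 (adjusted p = 0.0720) was called lower with the pairs as a replicate block. Over all these lists, each gene once and the 6 members left out, 22 of 109 genes were called higher and 5 lower, with a median of -0.01. All genes tested gave 9.52% higher and 17.5% lower, with a median of -0.17.

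The genes beside the members on the chromosome were also compared. Of 20 nearest listed neighbours that are not members, 2 were called higher, 3 lower and 15 neither. Among all genes, 9.52% were called higher and 17.5% lower, so these counts do not set the neighbours apart. SERPING1, the C1 inhibitor gene next to UBE2L6, rose from 0.280 ± 0.131 to 1.93 ± 0.611 CPM (SD, n = 4 each; log2 fold change 2.42, adjusted p = 0.000500, limma). PPM1K, a mitochondrial phosphatase gene beside HERC6, rose by 1.04, and ABCG2, a transporter gene of the same region, fell by 2.42 on the log2 scale. HES4 and AGRN, on either side of ISG15, were at 0.85 (adjusted p = 0.104) and 0.09, and HES4 was called higher with TMM scaling (adjusted p = 0.0498) and with the pairs as a replicate block (adjusted p = 2.51e-06). TRAIP, beside UBA7, was called lower at -0.94 (adjusted p = 0.0335), a call lost with TMM scaling (adjusted p = 0.0657).

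Similarity of pattern was taken as the root mean square difference between log2(CPM + 0.1) profiles over the 8 libraries, each set to its own control mean. Among the nearest 3 genes to ISG15 were HLA-E, at 0.192, and PSMB8. UBE2L6 was nearest to HLA-C at 0.189, then CD7 and IRF1. UBA7 was nearest to ENSG00000261884 at 0.241, then IRF1-AS1 and ENSG00000287839. HERC5 was nearest to SEMA3C at 0.113, then ZBTB10 and NCALD.

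HERC6 was nearest to ASNS at 0.0631, then USP18 at 0.127 and GRM4, and USP18 to ASNS at 0.124, then HERC6 and DAPK2. HERC6 and USP18 were the only members among each other's nearest 3 at this pseudocount, and with 0.5 in its place USP18 was no longer among those of HERC6. With a pseudocount of 0.5 in place of 0.1, 7 of these 18 nearest genes were again among the nearest 3, and CD7 had a control mean below the 3 reads that a count of 0 allows, so its place rests on the pseudocount.

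The identity of the samples was checked against marker genes. All 8 beta-cell markers were listed, and in control libraries CHGA stood at 19221 and INS at 2169 CPM on average. Of these 8, PDX1, NKX2-2, MAFA and SLC30A8 were called lower with cytokines. The other 4 were not called, with log2 fold changes of 0.93 for IAPP, 0.39 for CHGA, 0.39 for NKX6-1 and -0.17 for INS. Of 8 leukocyte markers CD14 and AIF1 were listed, with a summed level of 2.20 to 6.47 CPM in control libraries and 1.64 to 2.62 CPM in cytokine libraries, and AIF1 was called lower. The other 6, PTPRC among them, were not analysed here. Of 6 endothelial and fibroblast markers COL1A1 was listed, below 1 CPM throughout. Exocrine and duct markers (CPA1 and KRT19 of 6) summed to 88.2 to 167 CPM in control and 84.6 to 166 CPM in cytokine libraries. KRT19 made up most of that sum, and CPA1, a pancreatic enzyme gene, was called lower, from 8.41 ± 0.693 to 4.04 ± 0.924 CPM (SD, n = 4 each; log2 fold change -1.06, adjusted p = 0.00201, limma). The ranges of all 3 sums overlapped between conditions. Reads on listed genes ranged from 36956294 to 40117636 in control and from 36577438 to 39348935 in cytokine libraries.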

How the data were processed

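According to the methods and the submitters' notes, the authors aligned 100-base read pairs of a strand-specific library to GRCh38 with TopHat2 2.1.1, counted them on Ensembl release 107 genes with HTSeq 0.9.1 in default mode, and deposited CPM values for genes above 0.5 CPM in at least 4 samples. The table has 4 further columns of per-sample values that were not used here. With 1 read worth 0.0196 to 0.0214 CPM, 100% of the values used came out as whole reads within a tolerance of 0.01.

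The main test was limma 3.58.1 (R 4.3.3), with an intensity trend, on log2(CPM + 0.1) of 8 libraries, Benjamini-Hochberg adjusted over 16525 genes. The study's own test, edgeR, needs counts and was therefore run as an alternative on the recovered reads (edgeR 4.0.16), as was DESeq2 1.42.0. This edgeR run, with TMM scaling, did not return the study's counts. The paper reports far more genes down than up, whereas the run called 2162 higher and 1892 lower. The reason for this was not tested. Other alternatives changed the scaling, pseudocount (0.5 and 1), filter (mean of at least 1 CPM), trend, replicate block and series term, or left out 1 library at a time. The fit was tried on simulated counts with the same spread setting for every gene and without the general gap of C and D from A and B. That trial does not show how the fit does on libraries like these. TPM used GENCODE 29 exon lengths. Single values were compared by 2-sided exact permutation tests that did not use the pairs. Python 3.11.15 with pandas 2.3.3 and scipy 1.17.1 was used for tables.

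The members, gene lists and tests were chosen with earlier results of these data known. Named genes are the 6 members, the largest called rise and fall of each list, close family members, all genes of lists of 8 or fewer where described, the 2 nearest listed neighbours on each side and the 3 nearest patterns. Other list genes named were chosen after their values were seen, and some genes that the rule covers are not reported. The pairing by column name was checked by correlating deviations from the group means. Libraries C and D gave 0.80 and 0.74 with their namesakes and 0.11 and 0.15 when crossed, so their names pair them. Libraries A and B gave 0.57 and 0.59 with their namesakes. When crossed they gave 0.59 (control B, cytokine A) and 0.57 (control A, cytokine B). The check therefore cannot tell pair A from pair B, whose pairing rests on the column names alone. No library is a copy of another, since the chi-square per gene between libraries of 1 condition was at least 5.89. That least value was for A against B with cytokines, and A against B gave 13.3 in controls. All other comparisons gave 66.6 to 294. Libraries A and B were thus far closer to each other than any others were. The sources used here do not say whether they are separate cultures, and every SD and test counted them as separate libraries. Counting error alone underlies the limit of 3 reads for a count of 0.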

Additional observations from a re-analysis of the deposited data

How the results depend on the processing

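All 6 members stayed called higher in each of the 23 alternatives. The replicate block (pairs A to D) kept 6 of 6 called in limma and edgeR. Among related lists, limma with the block called 2 modifiers higher, and both tools called 1 ISG15 substrate lower. With the block, edgeR called 6 modifiers and 5 E2 enzymes higher, beside 3 and 3 in edgeR without it. Log2 fold changes ranged from 4.52 to 5.02 for ISG15, 4.10 to 4.59 for UBA7, 5.95 to 6.36 for UBE2L6, 1.33 to 1.63 for USP18, 1.02 to 1.46 for HERC5 and 1.18 to 1.52 for HERC6. Over all genes the deposited scale called 1574 higher and 2896 lower, TMM scaling 2168 and 1911, limma with the block 1917 and 3935, edgeR with TMM 2162 and 1892, edgeR with TMM and the block 2627 and 2660, and DESeq2 2360 and 2143.

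The untreated difference of C and D from A and B passed the thresholds for UBA7 with TMM (-0.78) and edgeR (-0.77) and for UBE2L6 with TMM (-0.64) and edgeR (-0.65), and the cytokine-exposed one for ISG15 with a pseudocount of 0.5 (0.60) or 1 (0.60), the filter at 1 CPM (0.61) and edgeR (0.58). With the longest transcript as length, UBA7 went from 5 to 6 and HERC6 from 6 to 5 in the control order, HERC5 from 5 to 6 and HERC6 from 6 to 5 in the cytokine order, and the shares became 31.6% for USP18 and 6.95% for HERC6 in control and 3.46% for USP18 with cytokines. Of the 18 nearest patterns 7 stayed with a pseudocount of 0.5. The cause of these shifts was not tested. Among values of single genes and lists, 3290 kept their side of the threshold, 95 gained and 16 lost a call, and 33 counts or values moved. In 244 cases a value that was not called changed sign and stayed uncalled. The interaction sets libraries A and B against C and D within each condition, so each part holds fewer than the 4 libraries of a group. Differences the size of the HERC5 interaction were beyond the precision of these data.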
